A study of Homo sapiens with 12 samples.

Results

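The nuclear-encoded genes of the mitochondrial respiratory chain and ATP synthase were followed in HaCaT cells, an established line of immortalised human keratinocytes, that were wild type or carried a knockout of the vitamin D receptor gene VDR. Members were chosen by gene symbol alone: symbols of the NDUF, SDH, UQCR, CYC1, COX and ATP5 families, with assembly factors and pseudogene symbols left out. The rule took 88 of the 16271 gene IDs in the count table, and no expression value entered it. The 4 groups were untreated wild type cells, wild type cells given 1,25(OH)2D3 (the hormonal form of vitamin D) for 8 h, untreated VDR knockout cells, and VDR knockout cells given the hormone for the same time, with 3 libraries each. All were grown in the same serum-containing medium. The sources used here do not give the dose, the vehicle, how the knockout was made or how many clones carried it, so genotype and clone cannot be told apart. Replicates were wells of a culture plate as far as the labels say, and the p-values below speak of the spread among them, which may be technical.

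Complex I (NADH dehydrogenase) and complex II (succinate dehydrogenase) pass electrons to ubiquinone, complex III passes them on to cytochrome c, and complex IV hands them to oxygen. Complexes I, III and IV pump protons across the inner mitochondrial membrane, and complex V, the ATP synthase, uses the returning protons to make ATP. Apart from complex II, each complex also holds subunits encoded by mitochondrial DNA; the table held 0 rows with a symbol starting MT-, so the mitochondrially encoded subunits are not analysed here. Nuclear and mitochondrial subunits have to be made in step, and a complex that lacks a subunit often fails to assemble.

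Of the 88 IDs, 77 were distinct structural subunits: 36 of complex I, 4 of complex II, 9 of complex III, 13 of complex IV (NDUFA4 was counted here) and 15 of complex V. Another 6 were second IDs or readthrough transcripts of these genes, and 5 were not core subunits (NDUFA4L2, NDUFA6-AS1, ATP5S, ATP5SL and COX7A2L). The counts of 11 members equalled those of another gene ID in every library, among them NDUFA11, NDUFA13, NDUFV2, COX6A1, COX8A and ATP5J2, so reads of these loci cannot be assigned to 1 gene. The filter on low counts kept 86 members. COX7A1 and COX6B2, isoforms of muscle and testis, did not pass it, with levels of at most 0.411 and 0.949 CPM (counts per 1000000 counts, TMM scaled) in any library.

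Library totals were 11485031 to 15992792 counts. VDR RNA was still counted in the knockout, at 73.1 to 81.1 CPM untreated and 80.5 to 86.3 CPM treated. Wild type cells had 99.7 to 107 CPM untreated and 67.4 to 74.6 CPM treated, so VDR counts were lower in the knockout without treatment and higher with it. CYP24A1, the classic hormone target, went from 46.3 to 51.3 CPM untreated to 1606 to 1718 CPM treated in wild type cells, and stayed at 11.6 to 21.0 CPM in the knockout libraries of both treatments. Of 13 keratinocyte markers, 11 were lower and 1 higher in untreated knockout cells (median log2 difference -1.17), and the part of this difference in the results below was not tested. Of 12 markers of other cell types, 4 passed the filter on low counts. Untreated wild type replicate 3 stood apart: its summed level of all members was 5820 CPM against 6607 and 6766 CPM in the other untreated wild type libraries.

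The 77 structural subunits made up 0.522 to 0.665% of the counts of a library. Summed over the 88 IDs, which count reads of second and readthrough IDs again, members were 0.569 to 0.722%. Their summed level averaged 6398 ± 506 CPM (SD, n = 3) in untreated wild type cells, 6012 ± 75.7 in treated wild type, 6798 ± 162 in untreated knockout and 6183 ± 171 in treated knockout cells. The sums of untreated knockout and untreated wild type cells overlapped (6618 to 6932 against 5820 to 6766 CPM). In bulk RNA, fewer cells of a kind and less RNA per cell cannot be told apart.

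In untreated knockout cells, subunits of the same complex stood on both sides of the wild type level. Of 86 members tested, 43 were higher and 20 lower (23.3% of them) at an adjusted p below 0.05, and 23 were not called. These counts include second and readthrough IDs, and of the 75 structural subunits tested 39 were higher and 18 lower. Over all 14676 genes tested, 35.5% were higher and 34.2% lower. The median log2 difference was 0.18 over members and 0.01 over all genes. With scaling by library size alone the split was 49 higher and 13 lower, beside 42.4% and 27.8% of all genes, and the median of all genes moved to 0.13. Each complex had called subunits in both directions: 18 higher and 9 lower of 36 in complex I, 3 and 1 of 4 in complex II, 4 and 3 of 9 in complex III, 5 and 2 of 11 tested in complex IV, and 9 and 3 of 15 in complex V. Of all genes 69.7% were called, in near equal shares higher and lower. Calls in both directions within a complex are therefore not read as a trait of the respiratory chain.

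**Figure D1:**
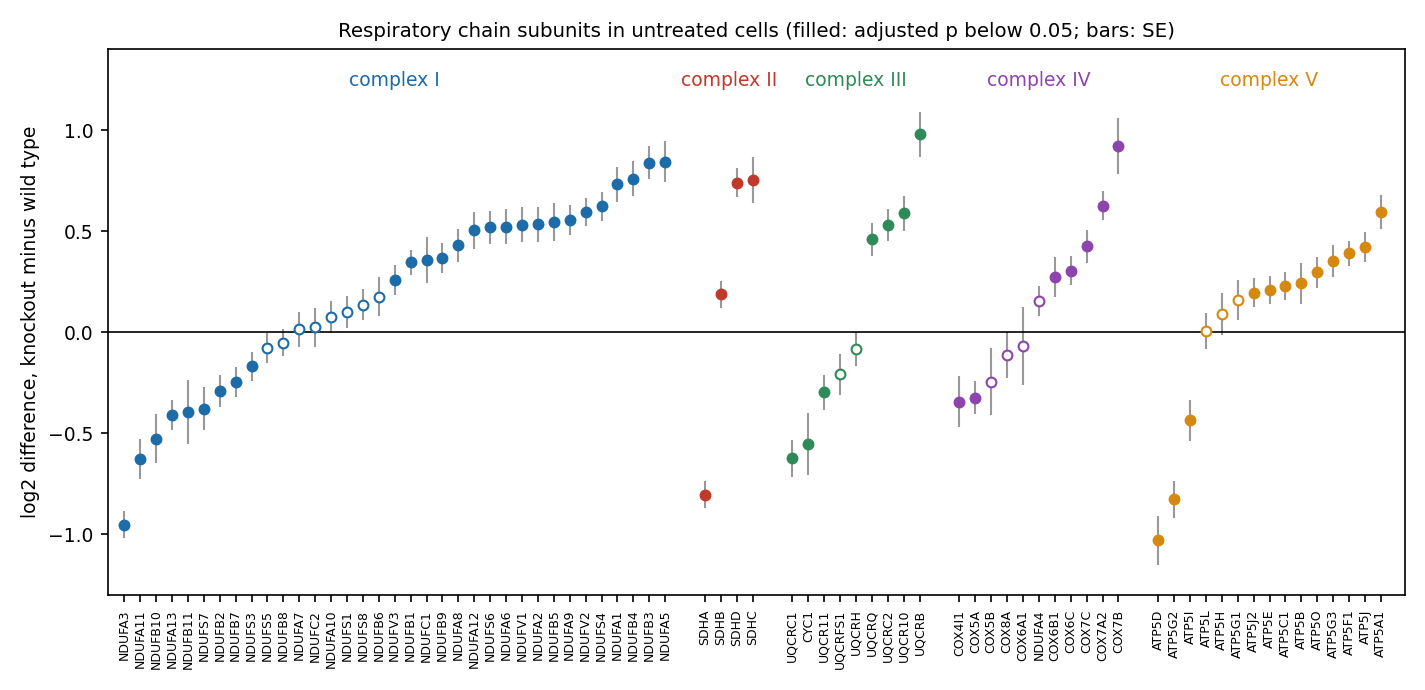
Log2 difference between untreated knockout and untreated wild type cells for 74 structural subunits, ordered by value within each complex; bars are SE, filled points have an adjusted p below 0.05 (edgeR, n = 3 per group). In each complex the points run from below 0 to above 0, from -1.03 for ATP5D to 0.98 for UQCRB.

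Complex II is given in full, because it has 4 subunits, all of them members. SDHA carries the flavin that oxidises succinate, SDHB the iron-sulfur clusters, and SDHC and SDHD anchor both in the membrane. SDHA (chromosome 5, 218241 to 256700) had 197, 198 and 210 CPM in untreated wild type libraries and 114, 115 and 118 CPM in untreated knockout libraries. The groups did not overlap, and the log2 difference was -0.80 ± 0.07 (SE, adjusted p = 1.4e-08). SDHD (chromosome 11, 112086773 to 112120013) went the other way, with 61.4, 61.3 and 56.5 CPM in wild type and 102, 93.8 and 104 CPM in the knockout. Its log2 difference was 0.74 ± 0.07 (adjusted p = 9.68e-08), again without overlap. SDHC had 15.5, 16.5 and 17.0 CPM in wild type and 25.1, 28.2 and 29.4 CPM in the knockout, a log2 difference of 0.75 ± 0.11 (adjusted p = 1.64e-05). SDHB was higher by 0.19 ± 0.07 (adjusted p = 0.0181), with 102, 104 and 113 CPM against 117, 124 and 123. Its call was lost in 2 of the 12 fits that leave out 1 library. It was also lost with the compared groups fitted alone, with the length trend removed, and with length and GC trends both removed. In treated cells the same split was present: SDHA -0.69 ± 0.07, SDHB 0.43 ± 0.07, SDHC 1.197 ± 0.11 and SDHD 0.87 ± 0.07 (largest adjusted p of the 4, 1.71e-05).

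SDHA has near-identical pseudogene copies that the table also counts. SDHAP1 had 148 to 174 CPM in untreated wild type and 84.6 to 128 CPM in untreated knockout libraries, a log2 difference of -0.66 ± 0.17 (adjusted p = 0.0042), and reads of SDHA and SDHAP1 cannot be told apart with certainty. SDHAP2 was at 29.9 CPM in untreated wild type replicate 1 and at 0.258 to 1.099 CPM in the other 11 libraries. UQCRB of complex III has such a copy too: UQCRBP1 was counted at 26.5 to 38.1 CPM in untreated libraries, with a log2 difference of 0.01 ± 0.16.

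**Figure D2:**
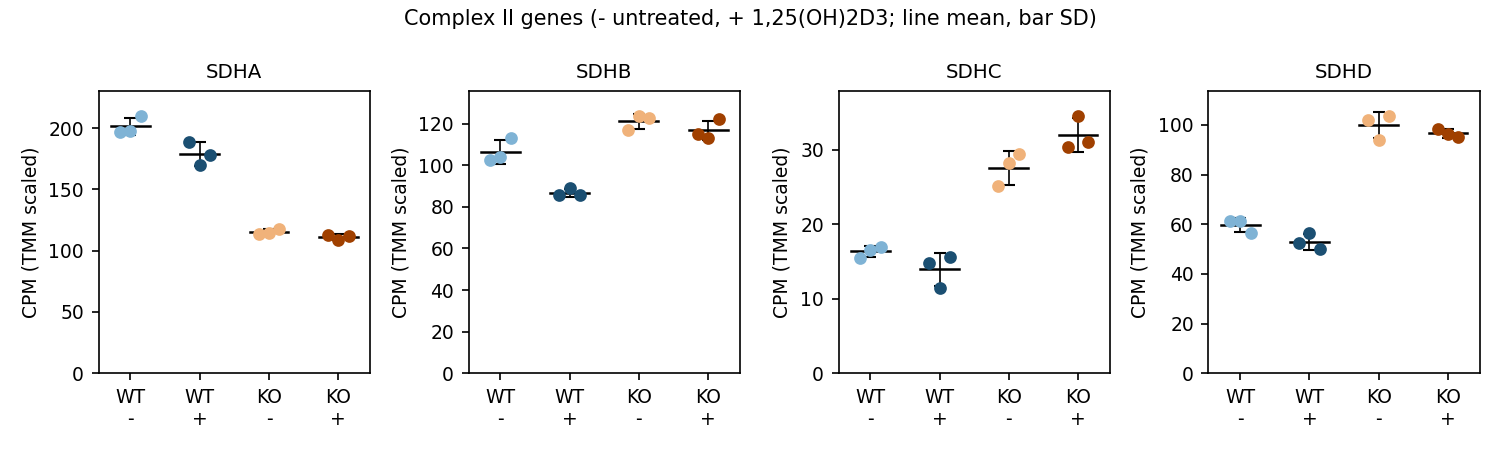
Level of the 4 complex II genes in each library (CPM, TMM scaled; points are libraries, lines are means, bars are SD, n = 3 per group, each axis from 0). SDHA lies lower in both knockout groups, at 109 to 118 CPM against 170 to 210 CPM in wild type, and SDHC and SDHD lie higher.

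The promoter windows of these genes are shown because genes of 1 complex moved in opposite directions. They hold 250 bases before and 50 after the start site, from RefSeq on GRCh38.p14, read on the strand of the gene from 5′ to 3′. Capitals mark matches, on either strand, to the palindromic motif of NRF1, to the core of the ETS family that includes GABP (CCGGAAG), and to the motif of YY1, all factors known to bind promoters of respiratory chain genes. SDHC is not in the promoter table.
SDHA, chr5:218070-218369, strand +: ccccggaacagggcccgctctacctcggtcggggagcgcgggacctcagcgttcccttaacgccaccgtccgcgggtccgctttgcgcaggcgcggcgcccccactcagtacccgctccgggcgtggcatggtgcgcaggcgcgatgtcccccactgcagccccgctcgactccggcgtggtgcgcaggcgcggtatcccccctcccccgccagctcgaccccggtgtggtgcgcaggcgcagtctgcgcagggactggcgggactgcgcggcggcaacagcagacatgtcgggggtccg
SDHB, chr1:17053983-17054282, strand -: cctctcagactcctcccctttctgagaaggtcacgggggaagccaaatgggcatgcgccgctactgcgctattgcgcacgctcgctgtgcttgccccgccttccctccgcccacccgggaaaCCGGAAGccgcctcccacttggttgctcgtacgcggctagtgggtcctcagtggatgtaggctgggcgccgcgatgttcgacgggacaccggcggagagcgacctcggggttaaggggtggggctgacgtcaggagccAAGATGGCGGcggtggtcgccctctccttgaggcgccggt
SDHD, chr11:112086623-112086922, strand +: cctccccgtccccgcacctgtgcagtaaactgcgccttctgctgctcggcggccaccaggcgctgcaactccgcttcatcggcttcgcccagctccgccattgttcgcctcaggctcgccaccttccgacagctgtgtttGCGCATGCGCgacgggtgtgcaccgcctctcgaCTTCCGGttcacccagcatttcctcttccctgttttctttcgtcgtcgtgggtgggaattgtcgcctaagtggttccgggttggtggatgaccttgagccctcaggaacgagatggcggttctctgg
SDHD held 1 exact match to the NRF1 motif and 1 to the ETS core, and SDHB held 1 to the ETS core and 1 to the YY1 motif. SDHA held 0 exact matches to the 3, which does not show that it lacks sites for these factors. Over the 62 of 77 subunits with a promoter entry, the NRF1 motif was found in 4 (6.45%, against 1.24% of all 35116 promoters), the ETS core in 19 (30.6% against 10.3%) and the YY1 motif in 7 (11.3% against 1.2%). Direct repeats bound by the vitamin D receptor, searched in 3 forms with a spacer of 3 bases, were found in 0 subunit promoters and in 4 of all promoters. The 4 subunits with the NRF1 motif were NDUFB4, NDUFA8, ATP5C1 and SDHD. Each of them was called higher in untreated knockout cells, as were 31 of all 62 subunits with a promoter entry. Of the 31 higher subunits with a promoter entry, 6 held the ETS core, as did 6 of the 16 lower ones. The YY1 motif was held by 5 of the higher and 2 of the lower ones. Calls of genes with these motifs were not counted over the whole table, and a link of motif and direction was not tested.

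Complex I showed the same division among its core and accessory subunits. NDUFV1, which holds the flavin that accepts electrons from NADH, was higher in untreated knockout cells by 0.53 ± 0.09, and its partner NDUFV2 by 0.59 ± 0.07. Core subunits of the arm that leads to ubiquinone gave smaller values: NDUFS7 was lower by 0.38 ± 0.11 on the log2 scale, a call lost when the trend with GC content was removed, and NDUFS8 was not called, at 0.14. Accessory subunits spanned the whole range. NDUFA3 was lowest, with 137, 127 and 124 CPM in wild type and 65.2, 64.7 and 70.7 CPM in the knockout (-0.95 ± 0.07, adjusted p = 2.37e-09). NDUFB3 had 44.3, 40.9 and 48.4 CPM in wild type and 79.8, 74.9 and 84.4 CPM in the knockout (0.84 ± 0.08, adjusted p = 9.47e-08). NDUFB4 had a log2 difference of 0.76 ± 0.09, NDUFA5 of 0.84 ± 0.10, NDUFA1 of 0.73 ± 0.09 and NDUFS4 of 0.62 ± 0.07. On the lower side stood NDUFA11 (-0.63 ± 0.10), NDUFB10 (-0.53 ± 0.12) and NDUFA13 (-0.41 ± 0.07), whose calls were all lost when the GC trend was removed. NDUFA13 then stood at 0.090 in untreated cells, not called, and at 0.17 in treated cells. In treated cells that edgeR fit called it higher (adjusted p = 0.0489), against its direction in the main fit.

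In complex III, UQCRC1 and UQCRC2 form the large matrix domain together, and they were on opposite sides. UQCRC1 had 142, 141 and 108 CPM in wild type and 79.8, 89.1 and 85.0 CPM in the knockout (-0.62 ± 0.09, adjusted p = 1.18e-05). In treated cells its call was lost when the GC trend was removed. UQCRC2 had 94.2, 83.6 and 101 CPM in wild type and 136, 126 and 140.3 CPM in the knockout (0.53 ± 0.08, adjusted p = 1.43e-05). The groups overlapped for neither gene. UQCRB, a small subunit next to the ubiquinone site, was highest of the 75 subunits tested, with 19.4, 19.5 and 23.0 CPM against 40.9, 35.0 and 45.9 CPM (0.98 ± 0.11, adjusted p = 6.44e-07). UQCRFS1, the iron-sulfur subunit, and UQCRH, the hinge protein, were not called, at -0.21 ± 0.10 and -0.08 ± 0.08. CYC1, the cytochrome that reduces cytochrome c, was lower by 0.55 ± 0.15 on the log2 scale (adjusted p = 0.00612), with groups that overlapped and a call lost when the GC trend was removed.

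In complex IV, which is regulated in part through isoform pairs, COX7B was highest, with 34.8, 35.1 and 22.6 CPM in wild type and 54.3, 54.4 and 65.9 CPM in the knockout (0.92 ± 0.14, adjusted p = 3.35e-05). COX7A2 had a log2 difference of 0.63 ± 0.07, and COX7A2L, which joins complexes III and IV, of 0.55 ± 0.09. COX6B1, COX6C and COX7C were higher by 0.27, 0.30 and 0.43. The calls of COX6C and COX7C were lost when the GC trend was removed, and that of COX6B1 when the length trend was removed and in 2 of the 12 fits that leave out 1 library. COX4I1 and COX5A, which join early in assembly, were lower, at -0.34 ± 0.13 and -0.32 ± 0.08. The groups overlapped for COX4I1, and its call was lost in 3 of the 12 fits that leave out 1 library. COX5B, COX6A1, COX8A and NDUFA4 were not called, at -0.24, -0.07, -0.11 and 0.15. NDUFA4L2, the paralog of NDUFA4 that is known as a hypoxia-induced gene, was at 2.70 to 4.21 CPM in wild type and 1.88 to 2.26 CPM in the knockout (-0.78 ± 0.21, adjusted p = 0.00325), a call lost when the GC trend was removed. Its locus overlaps SHMT2 on the other strand. Whether reads were counted by strand is not given, so these low counts may hold reads of SHMT2.

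Complex V had the lowest value of all members. ATP5D, the delta subunit of the central stalk (now ATP5F1D; chromosome 19, 1241746 to 1244826), had 83.8, 88.8 and 58.7 CPM in wild type and 39.1, 40.4 and 33.9 CPM in the knockout. Every knockout library lay below every wild type library (-1.03 ± 0.12, adjusted p = 1.46e-06). The other stalk subunits went the other way, ATP5C1 (gamma) at 0.23 ± 0.07 and ATP5E (epsilon) at 0.21 ± 0.07, calls that were lost when the GC trend was removed. ATP5A1 and ATP5B encode the alpha and beta subunits of the catalytic head and stood at 0.60 ± 0.08 and 0.24 ± 0.10. The call of ATP5B was lost in 9 of the 12 fits that leave out 1 library. The 3 genes for the membrane ring subunit c, which encode the same mature protein, differed: ATP5G2 was lower (-0.83 ± 0.09, adjusted p = 4.65e-07), ATP5G3 higher (0.35 ± 0.08, lost when the GC trend was removed), and ATP5G1 not called (0.16 ± 0.10). ATP5G2 had 116, 112 and 90.1 CPM in wild type against 62.6, 55.1 and 61.4 CPM in the knockout.

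In hormone-treated cells the knockout differed from wild type in 41 members that were higher (47.7%) and 24 that were lower (27.9%). The background was 38.4% higher and 37.4% lower, and the medians were 0.15 over members and 0.02 over all genes. The untreated and treated genotype comparisons share no library. Of the 43 members higher untreated, 36 were also higher treated (36 of the 41), and 20 of the 20 lower ones were also lower treated (20 of the 24). The same overlap was not counted over all genes, of which 69.7% were called untreated and 75.9% treated. It is therefore not read as a trait of the members. In 0 members did the called direction turn. Across the 86 members the log2 differences of both comparisons had a Pearson r of 0.93, beside 0.80 across all genes tested. Genes are not independent replicates, and the 2 comparisons use the same cell lines.

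Among the members with the largest differences in treated cells, NDUFS4 stood at 1.21 ± 0.07 (adjusted p = 1.67e-10), NDUFA12 at 1.28 ± 0.09, NDUFA5 at 1.35 ± 0.11, NDUFB3 at 1.24 ± 0.08 and NDUFA9 at 0.96 ± 0.07. On the lower side ATP5D stood at -1.73 ± 0.12 (adjusted p = 3.59e-09), NDUFA4L2 at -1.54 ± 0.21, ATP5G2 at -1.04 ± 0.09 and CYC1 at -1.07 ± 0.15. CYC1 lost this call too when the GC trend was removed. Of these 9, NDUFS4, NDUFA12, NDUFA5, NDUFB3, NDUFA9 and ATP5D also passed the direct test of a difference in treatment response given below, and NDUFA4L2, ATP5G2 and CYC1 did not (adjusted p = 0.0695, 0.233 and 0.0986). NDUFA3 (-0.76 ± 0.07) and UQCRB (0.97 ± 0.11) were close to their untreated values.

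The direction of the genotype difference ran with base composition. The 43 members higher in untreated knockout cells had a median GC content of 45.5% in their longest transcript, and the 20 lower ones 59.2%. Over all genes the medians were 44.2% for higher and 54.4% for lower genes. Spearman's rho between GC content and log2 difference was -0.57 across the 86 members and -0.39 across the 14135 genes with a value, and the points share all libraries. When the trend with GC content was removed from the counts, 43 members were higher and 12 lower, beside 33.2% and 33.9% of all genes. Of the examples above, SDHA, SDHC, SDHD, NDUFA3, NDUFB3, NDUFS4, UQCRC1, UQCRC2, UQCRB, COX7B, ATP5D and ATP5G2 kept their untreated calls under that change. Of the 10 subunits on chromosome 19, 7 were lower and 1 was higher in untreated knockout cells, and of all 1027 genes tested there 50.9% were lower and 22.7% higher.

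**Figure D3:**
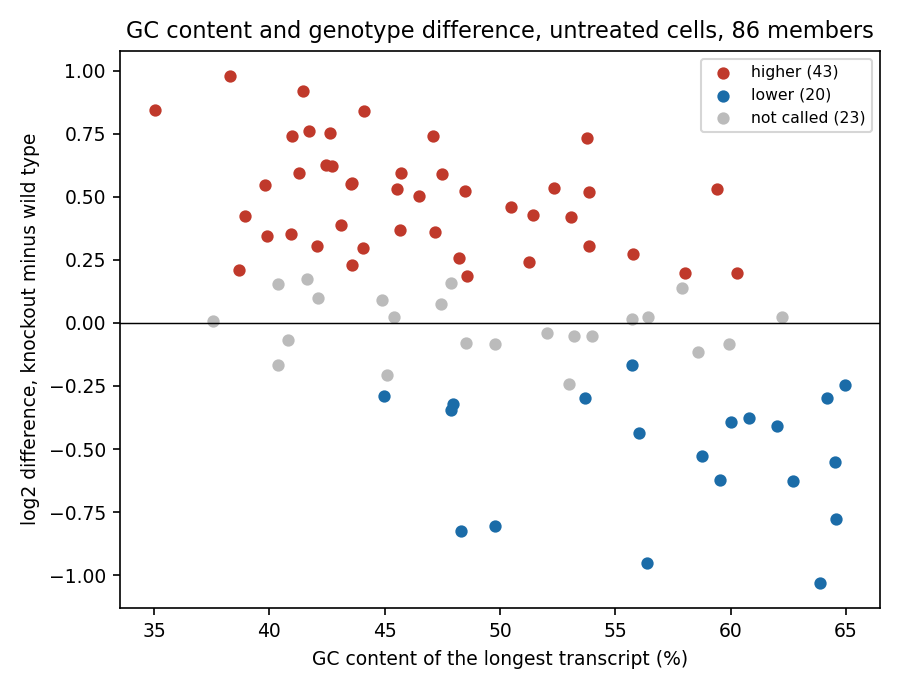
GC content of the longest GENCODE transcript (%) against the log2 difference between untreated knockout and wild type cells, 1 point for each of the 86 members tested, coloured by call. Higher members (median GC 45.5%) lie mostly to the left and lower members (median 59.2%) mostly to the right.

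Hormone treatment of wild type cells was followed by small decreases in a minority of members. At an adjusted p below 0.05, 19 of 86 members were lower (22.1%), 2 were higher (2.33%) and 65 were not called, where 13.0% of all genes were lower and 11.5% higher. The median log2 difference was -0.13 over members and -0.01 over all genes, and 66 of the 86 values lay below 0. The lower members came from each complex: 9 in complex I, 1 in complex II, 1 in complex III, 2 in complex IV and 5 in complex V, with COX7A2L beside them. Their median GC content was 43.5%, beside 44.5% for all lower genes. No member changed by as much as 2-fold in either direction (lowest log2 difference -0.54, highest 0.56).

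NDUFS4, an accessory subunit of the NADH-oxidising tip of complex I that is a known site of Leigh syndrome mutations, fell in each treated library. It had 71.6, 70.9 and 82.2 CPM untreated and 57.2, 54.3 and 56.9 CPM treated (-0.42 ± 0.07, adjusted p = 0.000657). NDUFA12, a neighbour in the same arm, had 42.4, 43.5 and 55.4 CPM untreated and 32.7, 33.9 and 30.8 CPM treated (-0.54 ± 0.09, adjusted p = 0.00076). NDUFA5 had 17.8, 15.3 and 18.3 CPM untreated and 10.96, 13.2 and 11.3 CPM treated (-0.53 ± 0.11, adjusted p = 0.00229). For these genes the groups did not overlap. NDUFS5 had a log2 difference of -0.36 ± 0.08, NDUFA4 of -0.39 ± 0.08, ATP5E of -0.37 ± 0.07, ATP5F1 (subunit b, now ATP5PB) of -0.29 ± 0.06 and SDHB of -0.29 ± 0.07. SDHB had 102, 104 and 113 CPM untreated and 85.8, 89.1 and 85.6 CPM treated (adjusted p = 0.00457). The calls of these 8 genes were kept in each of the 12 fits that leave out 1 library. The other SDH genes had values of -0.17 to -0.23 and were not called.

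The 2 members that rose were NDUFB1, a small membrane-arm subunit, and NDUFA4L2. NDUFB1 had 68.2, 68.4 and 68.6 CPM untreated and 80.5, 79.6 and 82.5 CPM treated (0.24 ± 0.06, adjusted p = 0.00953). NDUFA4L2 had 3.97, 4.21 and 2.70 CPM untreated and 5.05, 6.01 and 4.96 CPM treated (0.56 ± 0.19, adjusted p = 0.0425). This call was lost in 7 of the 12 fits that leave out 1 library. The count of lower members depended on single libraries: it was 36 without untreated wild type replicate 3, where 12.2% of all genes were lower. It was 12 without untreated wild type replicate 1 (11.4% of all genes), 11 without treated wild type replicate 1 (8.61%), and 9 without treated wild type replicate 3 (7.45%), so the members' share was then nearer to that of all genes.

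Treatment of the knockout gave 0 higher and 4 lower members, against a background of 0.913% higher and 1.64% lower. Its median over members was -0.14, and 71 of 86 values lay below 0. The edgeR test at an unadjusted p below 0.05 gave 3 higher and 29 lower, where 9.96% and 11.4% of all genes passed. DESeq2 with adjustment gave 0 and 13, where 3.28% and 4.18% of all genes passed. The 4 members called were ATP5B (-0.45 ± 0.10, adjusted p = 0.0329), UQCRQ (-0.41 ± 0.08, adjusted p = 0.0174), NDUFV1 (-0.40 ± 0.09, adjusted p = 0.028) and NDUFS8 (-0.30 ± 0.07, adjusted p = 0.0455). ATP5B had 251, 242 and 251 CPM untreated and 170.0, 177 and 195 CPM treated, without overlap. UQCRQ, a small ubiquinone-binding subunit of complex III, had 109, 108 and 112 CPM untreated and 82.3, 79.1 and 84.9 CPM treated. The values of the SDH genes were -0.05 for SDHA, SDHB and SDHD and 0.21 for SDHC, and none was called. The number of lower members was 0 without treated knockout replicate 1, 2 or 3 (0.439, 0.0541 and 0.338% of all genes lower). It was also 0 without untreated knockout replicate 1 or 3 (0.0947 and 0.528%). It was 2 without treated wild type replicate 1, 2 or 3 (0.832, 0.872 and 0.892%), and 27 without untreated wild type replicate 3 (9.06%). The share over all genes thus fell and rose with that of the members.

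**Figure D4:**
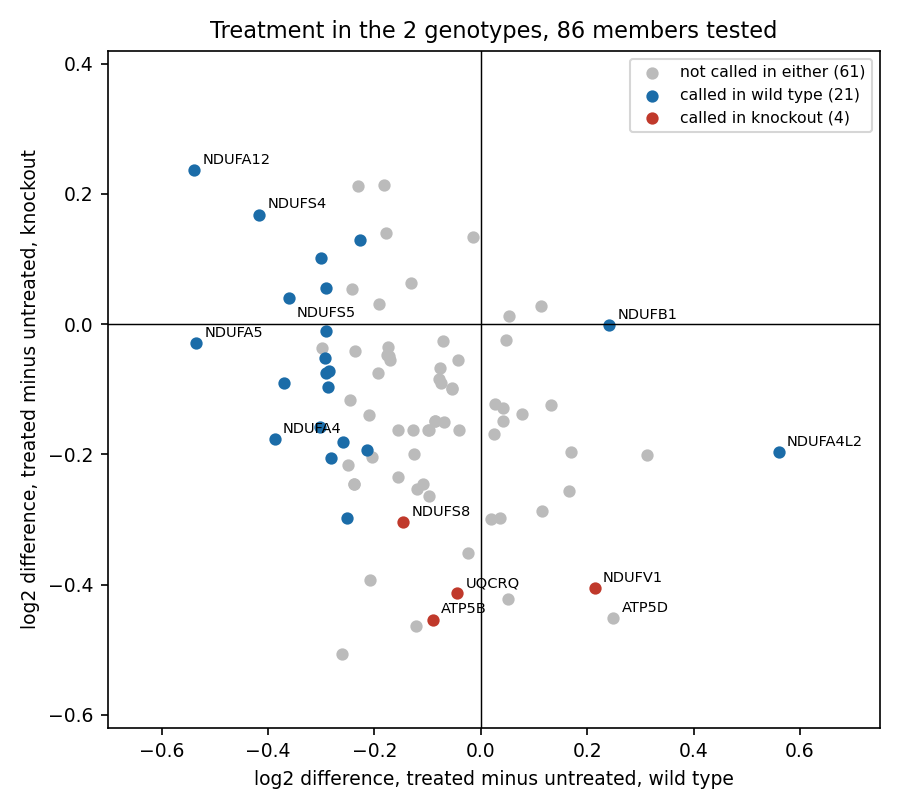
Log2 difference between treated and untreated cells in wild type (horizontal axis) and in the knockout (vertical axis) for the 86 members tested; blue, called in wild type (21), red, called in the knockout (4), grey, called in neither (61). Most points lie below 0 on the vertical axis (71 of 86) and on the horizontal axis (66 of 86).

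The 2 treatment comparisons share no library, and 55 of 86 members had the same sign in both. Values below 0 were 66 of 86 in wild type and 71 of 86 in the knockout, so many shared signs arise without any link. The same count was not made over all genes, and 55 is not read as agreement. Across members the log2 differences had a Pearson r of -0.33, beside -0.31 across all genes tested.

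Tested directly, the response to treatment differed between genotypes for 15 members. In 8 (9.3%, background 13.8%) the knockout value minus the wild type value was above 0, and in 7 (8.14%, background 12.5%) below 0. Both shares lay below the background. NDUFA12 had the largest difference, 0.78 ± 0.13 (adjusted p = 0.000574). In the knockout it had 64.9, 66.0 and 69.8 CPM untreated and 76.8, 80.8 and 78.9 CPM treated, where wild type levels were lower after treatment. NDUFS4 differed by 0.59 ± 0.10 (adjusted p = 0.000612), with 114, 116 and 116 CPM in untreated and 126, 134 and 129 CPM in treated knockout libraries. NDUFA9, an accessory subunit near the ubiquinone site, differed by 0.40 ± 0.10 (adjusted p = 0.00959), with a call lost when length and GC trends were both removed.

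NDUFV1 differed in the opposite direction, by -0.62 ± 0.12 (adjusted p = 0.00197). It had 105, 103 and 80.5 CPM in untreated and 107, 114 and 114 CPM in treated wild type libraries, and 143, 137 and 138 CPM in untreated and 105, 99.6 and 111 CPM in treated knockout libraries. ATP5D differed by -0.70 ± 0.17 (adjusted p = 0.00747), with 97.0, 88.2 and 89.7 CPM in treated wild type and 27.8, 27.6 and 27.4 CPM in treated knockout libraries. NDUFS3, a core subunit of complex I, differed by -0.37 ± 0.10 (adjusted p = 0.0147). The calls of these 6 genes were kept in each fit that leaves out 1 library. When length and GC trends were both removed, NDUFA12, NDUFS4 and NDUFV1 remained called and NDUFA9, ATP5D and NDUFS3 did not. Complex I gave 11 of the 15 calls, 7 above 0 and 4 below. That is 30.6% of its subunits, near the 26.3% of all genes called in either direction.

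**Figure D5:**
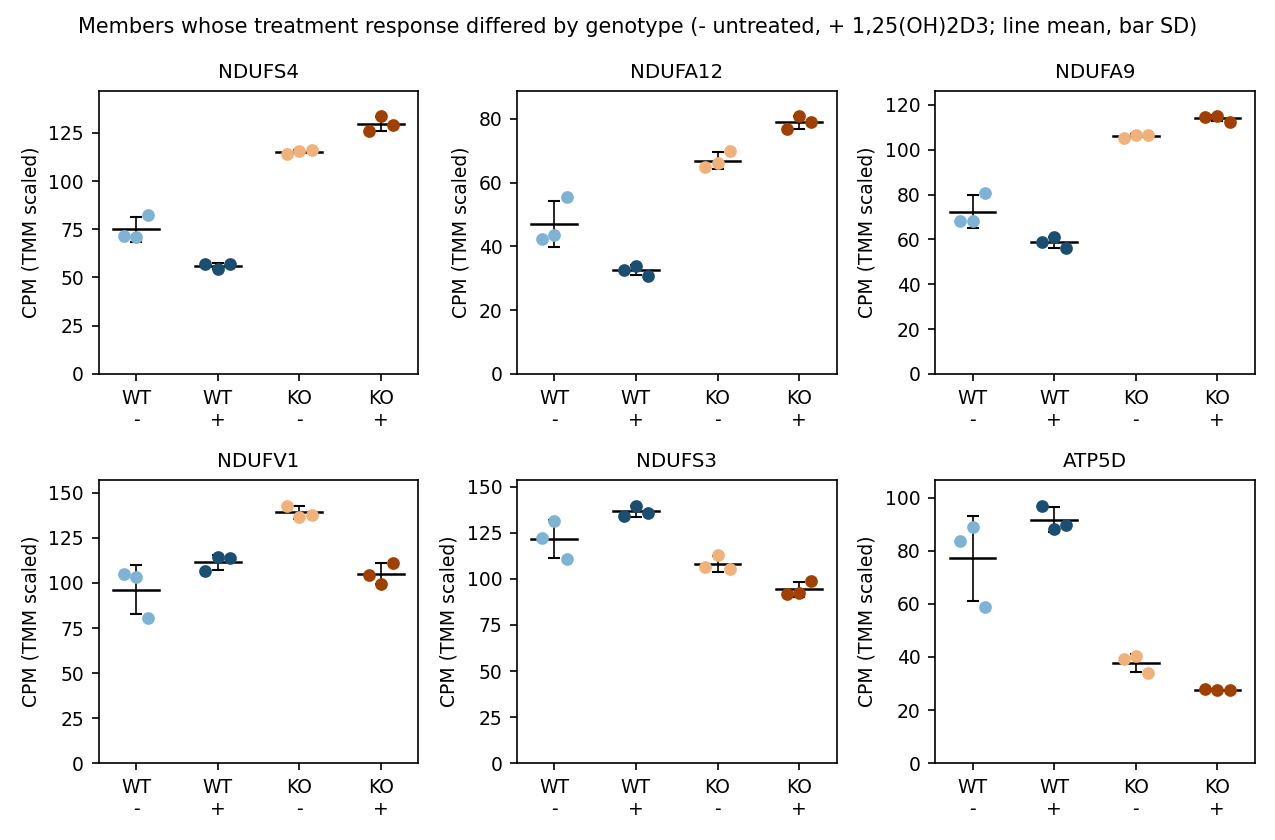
Level in each library (CPM, TMM scaled; lines are means, bars are SD, n = 3 per group, each axis from 0) of the 6 members whose difference in treatment response was called in every fit with 1 library left out. In the upper row (NDUFS4, NDUFA12, NDUFA9) the treated wild type libraries are the lowest, and in the lower row NDUFV1 and ATP5D are lower in treated than in untreated knockout libraries.

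The promoter windows of NDUFS4 and NDUFV1, complex I genes with opposite differences in response, are given with the same marking of motifs (capitals as above).
NDUFS4, chr5:53560389-53560688, strand +: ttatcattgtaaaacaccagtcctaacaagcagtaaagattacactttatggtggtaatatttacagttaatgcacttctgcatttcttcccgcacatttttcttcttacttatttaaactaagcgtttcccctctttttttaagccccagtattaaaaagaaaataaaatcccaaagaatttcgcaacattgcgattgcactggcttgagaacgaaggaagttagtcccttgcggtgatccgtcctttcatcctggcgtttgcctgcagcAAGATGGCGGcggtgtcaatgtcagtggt
NDUFV1, chr11:67606686-67606985, strand +: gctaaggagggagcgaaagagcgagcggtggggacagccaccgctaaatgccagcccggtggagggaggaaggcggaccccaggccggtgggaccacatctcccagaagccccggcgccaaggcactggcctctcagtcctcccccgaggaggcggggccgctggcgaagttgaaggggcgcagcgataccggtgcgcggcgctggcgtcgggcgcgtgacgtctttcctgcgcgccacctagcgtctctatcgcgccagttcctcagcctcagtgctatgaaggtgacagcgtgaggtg
NDUFS4 held 1 exact match to the YY1 motif, inside the bases that follow the start, and NDUFV1 held 0 exact matches to the 3 marked motifs. Their GC contents in the window were 40.3% and 68.3%.

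Genes that build or feed the chain are given from lists outside the symbol rule. Their counts stand beside the shares over all genes given above, which were 35.5% higher and 34.2% lower for genotype without treatment and 11.5% higher and 13.0% lower for treatment of wild type cells. For genotype in treated cells the shares were 38.4% higher and 37.4% lower, and for treatment of the knockout 0.913% and 1.64%. Of 14 complex I assembly factors tested, 8 were higher and 1 lower in untreated knockout cells, and 11 and 1 in treated cells. TIMMDC1 stood at 1.02 ± 0.09, TMEM126B at 1.05 ± 0.09 and FOXRED1 at 0.61 ± 0.06 untreated, and NDUFAF3 was lower by 0.61 ± 0.08 on the log2 scale. Of 21 complex IV assembly factors, 9 were higher and 4 lower untreated, near the share over all genes for the higher ones, with SLIRP first (0.73 ± 0.08), which stabilises mitochondrial mRNAs. The same list had 7 lower and 0 higher members after treatment of wild type cells, among them COX15 (-0.42 ± 0.09) and COX10 (-0.39 ± 0.09), enzymes of haem A synthesis. COX10 was the 1 member of that list called after treatment of the knockout, where it was higher (0.38 ± 0.09, adjusted p = 0.0447). Of 21 genes of the TCA cycle and pyruvate entry, 7 were lower and 0 higher after treatment of wild type cells, led by FH (fumarase), which went from 80.6 to 57.7 CPM (-0.48 ± 0.09, adjusted p = 0.000872). In untreated knockout cells 13 of them were higher and 4 lower, with SUCLG1 at 0.91 ± 0.07 and OGDH at 0.69 ± 0.07.

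Of 15 regulators of mitochondrial biogenesis tested, 4 were higher and 7 lower in untreated knockout cells, counts not far from the shares over all genes. POLRMT, the mitochondrial RNA polymerase, was at 81.0 to 105 CPM in wild type and 41.0 to 43.0 CPM in the knockout (-1.16 ± 0.09, adjusted p = 5.7e-09). PPRC1 (-0.98 ± 0.07) and PPARGC1B (-0.97 ± 0.08), coactivators of respiratory genes, were lower too, whereas TFAM, which packages mitochondrial DNA, was higher by 0.30 ± 0.08. After treatment of wild type cells 5 were higher and 3 lower: POLRMT rose by 0.45 ± 0.09, YY1 by 0.42 ± 0.09, and TFAM fell by 0.42 ± 0.08 on the log2 scale. Treatment of the knockout gave 0 calls in this list, beside 0.913% higher and 1.64% lower over all genes. The mobile carrier CYCS and the ATP synthase inhibitor ATPIF1 are among 5 subunits and carriers outside the rule, of which 3 were higher and 0 lower in untreated knockout cells. ATPIF1 rose in treated wild type cells (0.26 ± 0.08) and fell in the treated knockout (-0.38 ± 0.08), and its responses differed by -0.65 ± 0.11 (adjusted p = 0.000745). Of 13 genes of coenzyme Q synthesis, 6 were higher and 3 lower in untreated knockout cells, with COQ5 at 0.71 ± 0.10 and COQ4 at -0.41 ± 0.07. The lists for assembly of complexes II, III and V held 3, 6 and 2 tested genes, of which 2, 1 and 1 were higher and 0, 1 and 0 lower.

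In the authors' deposited table for genes lower after treatment of wild type cells, cellular respiration held 24 of 840 listed genes (adjusted p = 0.045), 6 of them members. In the authors' deposited table for genes lower after treatment of the knockout, the term for inner mitochondrial membrane protein complex held 12 of 314 listed genes (adjusted p = 0.00347), 11 of them members. In their deposited tables for genes higher in the knockout, cellular respiration held 64 of 3062 listed genes untreated (adjusted p = 0.0175) and 84 of 3915 treated (adjusted p = 0.000379). In the same authors' deposited table for untreated cells, the term mitochondrial respiratory chain held 33 of 3189 listed genes, 28 of them members, at an adjusted p of 0.0741. The authors' deposited tables list higher and lower genes separately, and members stood on both sides of the genotype comparison.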

How the data were processed

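Total RNA libraries were grouped by the submitters' labels. The authors deposited raw read counts per gene, and CPM that equal each count divided by its library total to within 0.005. Their deposited ontology tables hold p-values, raw and adjusted, and how many listed genes fell in each term (per the file headers). BWA 0.5.9 and mm9, a mouse build, are named in the submitters' processing notes, although the gene IDs are human. How reads were counted, and whether by strand, the sources used here do not say. Of 77 subunits, 36 overlap another counted gene, 27 of them one on the other strand. Positions, lengths and GC content come from GENCODE v29 (GRCh38), which held 15524 IDs and all 88 members.

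The 12 libraries entered 1 model in edgeR 4.0.16 under R 4.3.3, with TMM factors of 0.9502 to 1.057, filterByExpr and the robust quasi-likelihood test (common dispersion 0.0117), which was tested on simulated data. The filter left 14676 genes and set aside 1595. P-values were adjusted by Benjamini-Hochberg over all genes tested, and the adjusted p-values printed for genes and lists come from this test unless the authors' deposited tables are named. SE is the log2 difference divided by the square root of F, with n = 3 per group. In each comparison the up to 8 members called each way with the smallest adjusted p were named, with the SDH genes, isoform pairs, members with the highest or lowest level, and up to 3 genes per list; others were added for their role. Alternatives were other scalings, filters, tools (DESeq2 1.42.0, limma 3.58.1) and thresholds, a replicate block, left-out libraries, and removal of trends with length and GC content, the latter chosen after seeing the data. The members and lists were chosen with earlier results of these data known. Values of 1 subunit are not reported here, though it stays in the counts.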

Additional observations from a re-analysis of the deposited data

Results flagged for a closer look

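Treatment responses that differed between the genotypes in the test of the difference itself (knockout response minus wild type response, log2) are given here for 14 members. The value was 0.78 for NDUFA12, 0.59 for NDUFS4, 0.51 for NDUFA5, 0.40 for NDUFA9, 0.40 for NDUFS5, 0.40 for NDUFB3, 0.36 for NDUFS1 and 0.28 for ATP5E. It was -0.70 for ATP5D, -0.62 for NDUFV1, -0.40 for ATP5A1, -0.37 for UQCRQ, -0.37 for NDUFS3 and -0.24 for NDUFB1. The calls of ATP5E and NDUFB1 were each lost in 10 of the 12 fits that leave out 1 library, those of NDUFS1 in 7, UQCRQ in 3 and NDUFA5 in 2. NDUFB3, NDUFS5 and ATP5A1 each lost the call in 1 such fit. With the GC trend removed, NDUFS1, NDUFA5, NDUFS3 and ATP5E lost the call, and with the length trend removed NDUFS1, UQCRQ and NDUFB1 did. With both trends removed, NDUFA9, ATP5D and UQCRQ lost it, as did NDUFS1, NDUFA5, NDUFS3 and ATP5E. ATP5E also lost it by library size alone, with limma, with either other filter and with the replicate block. NDUFB1 also lost it with DESeq2 size factors and with the replicate block.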

How the results depend on the processing

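Of 1578 single-gene values under settings other than a left-out library, 1444 were counted as unchanged, 70 lost and 51 gained a call, and 13 called values reversed. A value not called in the main fit was counted as unchanged even if its sign turned, so the 1444 do not all share direction. The reversals came with the GC trend removed, or with length and GC trends removed: NDUFA13 at 0.090 and 0.058 in untreated knockout cells, and in treated ones NDUFA13 at 0.17 and 0.25, COX8A at 0.23 and 0.083, NDUFA11 at 0.030 and 0.083, ATP5G3 at -0.092 and -0.067, NDUFA4 at -0.051 and -0.0034, and ATP5A1 at -0.039 with both removed. In treated cells these edgeR fits called NDUFA13 higher (adjusted p = 0.0489 with the GC trend removed, 0.00935 with both removed). COX8A was called higher with the GC trend removed (adjusted p = 0.0306). The other reversed values were not called in their new direction. The cause was not tested.

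With both compared groups fitted alone, treatment in wild type gave 1 higher and 10 lower members (7.69% and 7.93% of all genes) and treatment in the knockout 2 and 21 (5.79% and 6.55%). At an adjusted p below 0.01 the counts were 1 and 11 for treatment in wild type (5.56% and 6.77% of all genes), 0 lower in the knockout (0.245%), and 3 and 2 for the difference of responses (7.13% and 5.96%). The 1 higher member in treated wild type cells also came with the stricter filter, DESeq2, either GC trend setting, or subunits with counts of their own. DESeq2 gave 13 lower in the treated knockout (4.18% of all genes), and the GC trend setting 7 (2.34%). Lower members in untreated knockout cells numbered 13 by library size alone (27.8% of all genes) or limma (27.6%) and 12 with the GC trend removed (33.9%). The difference of responses had 15 higher members with the length trend removed (14.6% of all genes) and 3 lower with both trends removed (10.6%). Summed levels by library size alone were 5778 CPM in treated wild type, 7107 in untreated and 6402 in treated knockout cells. Over subunits with counts of their own they were 5365 and 5040 CPM in untreated and treated wild type, and 5730 and 5212 in the knockout.

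Leaving out 1 library gave 1 to 5 higher and 9 to 36 lower members for treatment in wild type, 0 to 3 and 0 to 27 in the knockout, 39 to 43 and 17 to 25 for genotype untreated, 39 to 42 and 23 to 27 treated, and 5 to 12 and 3 to 9 for the difference of responses. In the same order, the shares of all genes were 6.83 to 12.3% and 7.45 to 13.3%, then 0.0 to 6.93% and 0.0541 to 9.06%. For genotype they were 32.6 to 36.8% and 31.4 to 35.5% untreated, and 35.5 to 38.9% and 35.1 to 39.1% treated. For the difference of responses they were 9.65 to 15.1% and 8.92 to 14.1%. Same-numbered libraries showed no shared deviation from their group means (r of deviations -0.175 to 0.121, above 0.1 in 1 of 18 pairs). Libraries of different number had -0.123 to 0.141, above 0.1 in 5 of 36 pairs. The labels do not say whether a number marks a shared day or plate, so whether the design was paired cannot be settled. With a replicate block the lower members were 15 after treatment in wild type (11.6% of all genes) and 1 in the treated knockout (0.722%). For genotype they were 18 untreated (33.6%) and 24 treated (37.0%), with 42 (35.0%) and 40 (38.0%) higher. The difference of responses had 8 higher (12.6%) and 6 lower (11.6%).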

Other observations

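The readthrough and second gene IDs followed their parent genes. The second ID of SDHD stood at 0.74 in untreated and 0.87 in treated knockout cells, as did SDHD itself, so these IDs add no independent measurement. The antisense-named member NDUFA6-AS1 (now NDUFA6-DT) was at 5.93 to 10.0 CPM in all 12 libraries and was called in none of the 5 comparisons. TIMM8B, which overlaps SDHD on the other strand, was at 56.9 to 60.4 CPM in untreated knockout and 50.6 to 63.6 CPM in untreated wild type libraries (0.04 ± 0.08). GABPA, which overlaps ATP5J on the other strand and encodes a subunit of GABP, was higher in untreated knockout cells (0.39 ± 0.11, adjusted p = 0.00558), as was ATP5J (0.42 ± 0.07). Without strand in the counting, reads of such pairs cannot be told apart.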
